A study of Mus musculus with 8 samples.

Results

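A set of 5 genes of tendon and fibrocartilage, Mkx, Scx, Tnmd, Cnmd and Thbs4, was followed in the thoracic annulus fibrosus of mice that lack the nucleoside transporter ENT1. The genes were given by name, and each was read from its single-gene probe set with the highest mean over the arrays. All 5 were found among the 22180 genes with such a probe set, each with 1, and all 5 were among the 15526 genes that passed a filter on low values and were tested. The annulus fibrosus is the fibrocartilage ring of the intervertebral disc. RNA was measured on 8 Affymetrix arrays, 2 in each of 4 groups of Black 6 mice: WT at 2 months, ENT1-null at 2 months, WT at 6 months and ENT1-null at 6 months of age. The ENT1-null mice had exons 2 to 4 of Slc29a1, the gene of ENT1, removed. Each array held RNA pooled from 5 to 6 annulus tissues, so that differences between single discs were averaged. Nothing in the labels says that pools of 1 group were made from different mice, so p-values measure only the spread between these arrays, which may be technical. Sex is not given in the sources used here.

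Mkx (Mohawk) and Scx (scleraxis) encode transcription factors of tendon, ligament and outer annulus cells, and both are known to drive genes of collagen fibrils and fibril-binding proteins. Tnmd (tenomodulin) and Cnmd (chondromodulin) are related transmembrane proteins with a BRICHOS domain and a cysteine-rich end that is known to restrain the growth of blood vessels. Tnmd is known from tendon and ligament, where Scx acts upstream of it, and Cnmd from avascular cartilage. Thbs4 (thrombospondin 4) is a secreted protein of the tendon and ligament matrix that takes part in the assembly of collagen fibrils.

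Within each age the relatives Tnmd and Cnmd lay on opposite sides of WT in the ENT1-null arrays. At neither age were both called, and the difference between them was not tested. The 250 bases before the annotated start of each are shown for this reason. They are RefSeq sequences of build GRCm38.p6, written 5′ to 3′ on the gene's strand, Tnmd from chrX:133850758-133851007 (plus strand) and Cnmd from chr14:79662184-79662433 (minus strand). Capitals mark a match to CANNTG, the E-box read by basic helix-loop-helix factors such as Scx, which reads the same on both strands.
Tnmd: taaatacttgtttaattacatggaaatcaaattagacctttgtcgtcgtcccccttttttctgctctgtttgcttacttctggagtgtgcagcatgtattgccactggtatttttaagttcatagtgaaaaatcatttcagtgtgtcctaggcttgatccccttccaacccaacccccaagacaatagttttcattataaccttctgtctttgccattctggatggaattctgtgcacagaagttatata
Cnmd: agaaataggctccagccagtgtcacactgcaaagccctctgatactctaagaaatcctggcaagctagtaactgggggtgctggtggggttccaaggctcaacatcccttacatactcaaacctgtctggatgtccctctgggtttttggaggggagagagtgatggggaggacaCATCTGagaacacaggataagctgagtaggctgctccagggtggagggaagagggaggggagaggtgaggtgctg
The Cnmd window holds 1 match, CATCTG, from 75 to 70 bases before the start that this window uses. The annotated span of the Cnmd gene reaches to 79662194, inside the window. The Tnmd window holds 0. The same window of Thbs4, at chr13:92794819-92795068 (minus strand), holds 1, CAAATG, from 115 to 110 bases before the start. AACAAT, a motif of SOX factors, searched on both strands, was in none of these 3 windows. Of 32851 such windows 66.2% hold CANNTG and 9.42% hold AACAAT. These matches are a description of the letters, and the arrays do not read binding. GC content was 38.4% in the Tnmd window, 54.0% in the Cnmd window and 70.8% in the Thbs4 window.

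Values are the deposited log2 expression values, on which a difference of 1 is a doubling, and levels are compared only within a gene. Differences are ENT1-null minus WT unless stated, each with its SE from the limma fit, and a gene was called at a limma p below 0.05 after Benjamini-Hochberg adjustment over all genes tested. The medians of the 8 arrays lay between 6.765 and 6.819. Across genes, which are not independent replicates, Pearson r was 0.983 to 0.984 within groups and at least 0.835 between any pair of arrays. Slc29a1 checked the genotypes: it was 10.71 and 10.69 on the WT and 9.21 and 9.36 on the ENT1-null arrays at 2 months, and 10.34 and 10.43 against 8.90 and 8.80 at 6 months. The difference was −1.41 ± 0.09 at 2 months (limma adjusted p = 0.00724) and −1.53 ± 0.09 at 6 months (limma adjusted p = 0.000354). The former call ended without WT replicate 1 or either ENT1-null array of that age, at −1.48 to −1.34, as well as when every probe set was tested or the fit held the 2 month arrays alone. All 9 marker genes of tendon and ligament fibroblasts, all 17 of chondrocytes and all 31 genes of the fibrous matrix list lay above the filter level of 6.206. So did all 16 markers of skeletal muscle, 15 of neutrophils and 12 of endothelium, so that passing the filter does not set annulus cells apart. Precision is limited by the 2 arrays of each group.

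**Figure D1:**
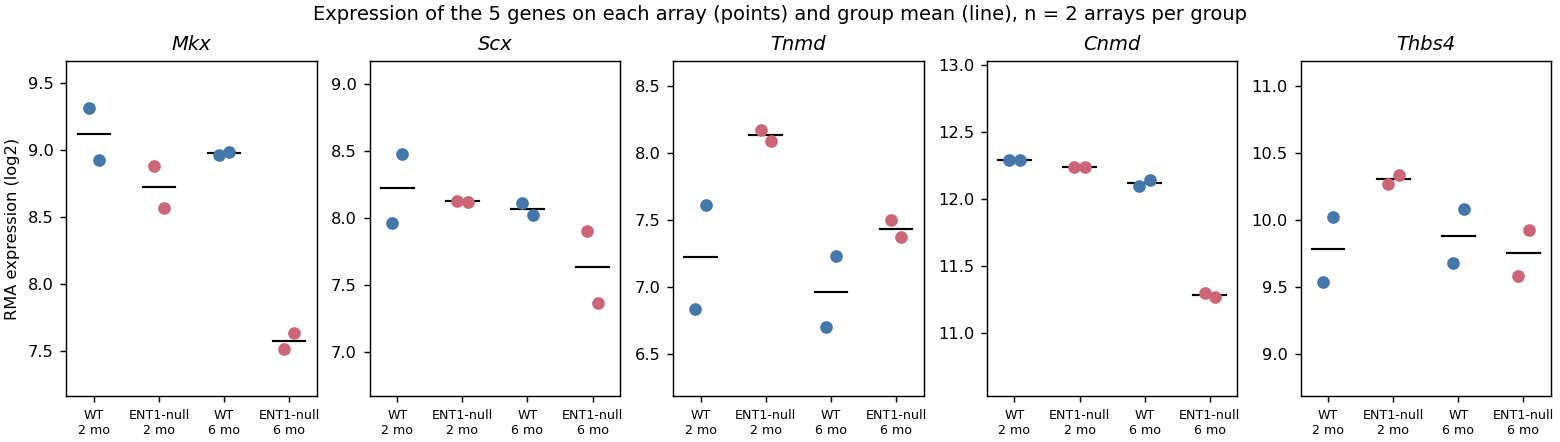
Log2 expression (y axis, 1 panel per gene with its own range) of the 5 genes on each array; points are arrays and lines the group means, n = 2 per group, with WT in blue and ENT1-null in red. The 6 month ENT1-null arrays lie apart and low for Mkx (7.52 and 7.64) and Cnmd (11.30 and 11.26), while the ENT1-null arrays lie above the WT arrays of their age for Tnmd.

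The first transcription factor, Mkx, was lower in ENT1-null at 6 months. Its level was 9.31 and 8.92 on the WT arrays and 8.88 and 8.57 on the ENT1-null arrays at 2 months, and 8.97 and 8.99 against 7.52 and 7.64 at 6 months. The genotypes did not overlap at either age, and the 6 month ENT1-null arrays were the lowest of the 8. At 6 months Mkx fell by 1.40 ± 0.15 (95% interval −1.75 to −1.05, limma adjusted p = 0.000583), 2.64-fold, to 37.9% of the WT mean (8.98 ± 0.015 in WT and 7.58 ± 0.084 in ENT1-null, SD, n = 2). Only 0.734% of all genes tested had a lower value in that comparison. At 2 months the difference was −0.39 ± 0.15 (−0.74 to −0.04, limma adjusted p = 0.219) and did not pass. In bulk tissue, fewer cells of a type and less RNA per cell cannot be told apart.

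The Mkx difference was larger at 6 than at 2 months, by −1.01 ± 0.21 (−1.51 to −0.51, limma adjusted p = 0.0474). That call lay close to the threshold and ended whichever array was left out (−1.20 to −0.82, adjusted p 0.0554 to 0.148) and with the replicate block, where it was −1.01 with an adjusted p of 0.0562. Most calls of all genes in the change between ages also ended with an array left out, so this loss is not particular to Mkx. Between the ages Mkx fell by 1.15 ± 0.15 within ENT1-null (limma adjusted p = 0.00352). Within WT the same comparison gave −0.14 ± 0.15 (limma adjusted p = 0.715). Across both ages, with age as a term, Mkx fell by 0.89 ± 0.21 (4 against 4 arrays, limma adjusted p = 0.0202), and all 4 ENT1-null arrays lay below all 4 WT arrays. Without either 6 month WT array (−0.80 and −0.79) or either 6 month ENT1-null array (−0.77 and −0.82) this last call ended.

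The other transcription factor, Scx, did not pass in any comparison. Its level was 7.96 and 8.48 on the WT arrays and 8.13 and 8.12 on the ENT1-null arrays at 2 months, and 8.11 and 8.02 for WT against 7.90 and 7.37 for ENT1-null at 6 months. The 2 month ENT1-null arrays lay between the WT arrays, while both 6 month ENT1-null arrays lay below every other array. The difference was −0.10 ± 0.21 at 2 months (−0.58 to 0.38, limma adjusted p = 0.832) and −0.43 ± 0.21 at 6 months (−0.91 to 0.05, limma adjusted p = 0.136). The 6 month interval reaches from a fall of nearly 1 to a value just above 0. It rested on ENT1-null replicate 2: without that array the difference was −0.16, and without ENT1-null replicate 1 it was −0.70 and passed (limma adjusted p = 0.0429). The genotype difference at 6 months minus that at 2 months was −0.34 ± 0.29 (limma adjusted p = 0.507), and the 6 minus 2 month difference was −0.15 in WT (limma adjusted p = 0.781) and −0.49 ± 0.21 in ENT1-null (limma adjusted p = 0.135). Across ages the difference was −0.26 ± 0.15 (limma adjusted p = 0.233).

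**Figure D2:**
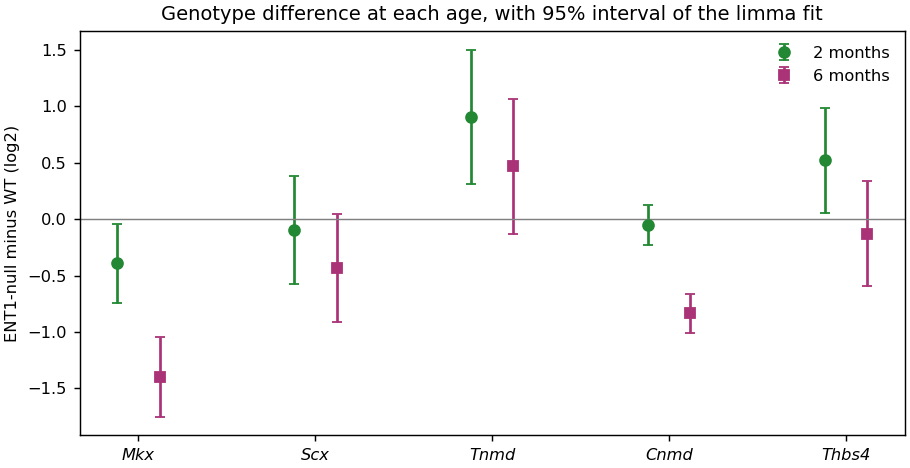
ENT1-null minus WT (log2, y axis) for each of the 5 genes at 2 months (green circles) and 6 months (purple squares), 2 against 2 arrays, with bars for the 95% interval of the limma fit. The 6 month intervals of Mkx (−1.75 to −1.05) and Cnmd (−1.01 to −0.66) lie below 0, and both intervals of Tnmd are centred above it.

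Tnmd, the tendon member of the pair of membrane proteins, was higher in ENT1-null with both ages in 1 fit. Its level was 6.84 and 7.62 for WT against 8.18 and 8.09 for ENT1-null at 2 months, and 6.70 and 7.23 for WT against 7.50 and 7.37 for ENT1-null at 6 months. Within each age both ENT1-null arrays lay above both WT arrays, but the 2 month WT replicate 2 lay above both 6 month ENT1-null arrays, so that the genotypes overlapped across ages. Tnmd rose by 0.69 ± 0.19 across ages (1.61-fold, 4 against 4 arrays, limma adjusted p = 0.0365). This call ended with all probe sets (adjusted p 0.0763) and without 5 single arrays: either 2 month ENT1-null array (0.63 and 0.66), 6 month WT replicate 1 (0.63) or either 6 month ENT1-null array (0.71 and 0.76). The WT arrays of Tnmd were farther apart than those of ENT1-null, with SDs of 0.55 and 0.38 against 0.058 and 0.088.

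Within single ages the Tnmd differences did not pass. At 2 months it was 0.91 ± 0.26 (0.31 to 1.50, 1.88-fold, limma adjusted p = 0.115), a value that only 2.25% of the genes tested exceeded. Leaving out WT replicate 2 gave 1.30, which passed (limma adjusted p = 0.0374), and leaving out WT replicate 1 gave 0.52. At 6 months the difference was 0.47 ± 0.26 (−0.13 to 1.07, limma adjusted p = 0.186). The difference at 6 months minus that at 2 months was −0.44 ± 0.36 (−1.28 to 0.41, limma adjusted p = 0.489), an interval that holds both no change and a loss of the whole difference. Between the ages Tnmd gave −0.26 in WT (limma adjusted p = 0.692) and −0.70 ± 0.26 in ENT1-null (limma adjusted p = 0.0940). This value passed with only the groups compared (adjusted p 0.00743).

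Cnmd, the cartilage member of the pair, had the closest replicates of the 5 genes and was lower in ENT1-null at 6 months. Its level was 12.29 and 12.29 for WT against 12.24 and 12.24 for ENT1-null at 2 months, and 12.09 and 12.14 for WT against 11.30 and 11.26 for ENT1-null at 6 months. Arrays of a group differed by at most 0.046, and the 6 month ENT1-null arrays were the lowest of the 8. At 6 months Cnmd fell by 0.84 ± 0.07 (−1.01 to −0.66, limma adjusted p = 0.000427), 1.78-fold, to 56.0% of WT. At 2 months the genotypes did not overlap either, with a difference of −0.05 ± 0.07 (−0.23 to 0.12, limma adjusted p = 0.740). That interval excludes a difference as large as the one at 6 months.

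The Cnmd difference was larger at 6 than at 2 months, by −0.78 ± 0.11 (−1.03 to −0.54, limma adjusted p = 0.0383). With arrays left out in turn that call ended in 7 of 8 cases and passed without replicate 1 of the older WT group (adjusted p 0.0430), with values of −0.81 to −0.76 throughout. As for Mkx, that loss was shared by most genes called in the change between ages. Between the ages Cnmd fell by 0.96 ± 0.07 in ENT1-null (limma adjusted p = 0.00172). In WT the same comparison gave −0.17 ± 0.07 (limma adjusted p = 0.375). Across ages the genotype difference was −0.44 ± 0.15 (limma adjusted p = 0.0616), and it passed when the second 2 month WT array or the first 2 month ENT1-null array was left out, at −0.52 in both cases.

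Thbs4, the matrix member, did not pass in any comparison, and its values did not keep one direction. Its level was 9.53 and 10.02 for WT against 10.27 and 10.34 for ENT1-null at 2 months, and 9.68 and 10.08 for WT against 9.58 and 9.92 for ENT1-null at 6 months. At 2 months both ENT1-null arrays lay above both WT arrays, and at 6 months the genotypes overlapped. The differences were 0.52 ± 0.20 at 2 months (0.06 to 0.99, limma adjusted p = 0.215) and −0.13 ± 0.20 at 6 months (−0.60 to 0.34, limma adjusted p = 0.640). The sign at 6 months turned without WT replicate 2 (0.07) or ENT1-null replicate 1 (0.04) and with arrays centred on the fibrous matrix list (0.19). The difference at 6 months minus that at 2 months was −0.65 ± 0.28 (−1.31 to 0.01, limma adjusted p = 0.190). Between the ages Thbs4 gave 0.10 in WT (limma adjusted p = 0.853) and −0.55 ± 0.20 in ENT1-null (limma adjusted p = 0.0915), and the latter passed with the replicate block (adjusted p 0.0222) and with only the groups compared (adjusted p 0.0389). Across ages it gave 0.20 ± 0.18 (limma adjusted p = 0.440).

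The counts of the 5 genes, which were chosen with earlier results of these data known, stand against all genes as follows. At 2 months 0 of 5 were called by limma, where 0.683% of all genes tested were. Mkx, Tnmd and Thbs4 had an unadjusted p below 0.05, as did 3008 of the 15526 genes. At 6 months 2 of 5 were called, both lower, where 38.8% of all genes were called, 17.6% lower and 21.2% higher. The share of the 5 genes is near that background, and what stands out of it is the size of the Mkx value, while 3.39% of genes had a lower value than Cnmd. The change of the genotype difference with age was called in 2 of 5, both lower, where 4.45% of all genes were called and 1.89% were lower. Age within WT called 0 of 5 and 0.0% of all genes (0 of 15526 by limma, also with eBayes trend and robust, and 2067 at an unadjusted p below 0.05). Age within ENT1-null called 2 of 5 lower, against 10.2% of all genes. Genotype across ages called 1 lower (Mkx), against 11.7%, and 1 higher (Tnmd), against 12.8%.

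Arrays that do not overlap are common with groups of 2. They did not overlap in 4 of 5 genes at 2 months (all but Scx), where 52.3% of all genes did not, and in 4 of 5 at 6 months (all but Thbs4), where 72.3% did not. Between the ages within ENT1-null 5 of 5 did not overlap, against 59.8% of all genes. Across ages 1 of 5, Mkx, did not overlap between genotypes, against 23.0% of all genes. The median of all genes was −0.04 at 2 months and −0.03 at 6 months. The comparisons within an age and those within a genotype share arrays, and so do those at 6 months and across ages.

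**Figure D3:**
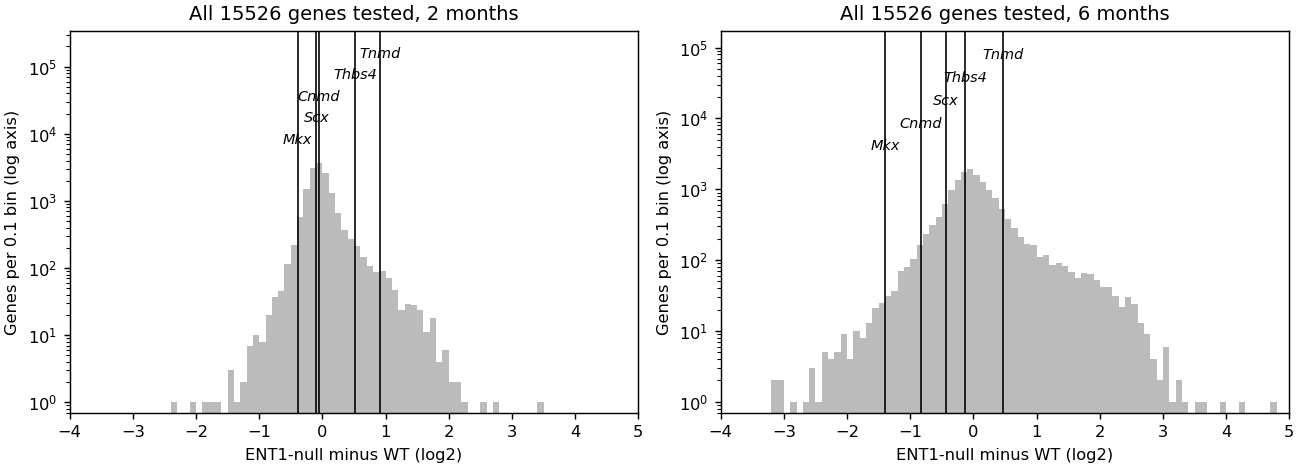
Histograms of ENT1-null minus WT (log2, x axis, bins of 0.1) over the 15526 genes tested at 2 months (left) and 6 months (right), with the number of genes per bin on a log y axis and vertical lines at the 5 genes. Mkx lies in the low tail at 6 months, with 0.734% of genes below it, and Tnmd in the high tail at 2 months, with 2.25% above it.

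Over the 8 arrays the profiles of the 5 genes, each centred on its own mean, fell into no single pattern. The smallest root mean square difference was 0.263 (log2), between Scx and Cnmd, followed by 0.269 between Mkx and Cnmd and 0.318 between Tnmd and Thbs4. The largest was 0.873, between Mkx and Tnmd. By the same measure over 13894 named genes, those nearest to Cnmd were Fzd2 (0.0549), Reck, Snhg18, Smarca1 and Sox5 (0.0614). Their 6 month differences lay between −0.87 and −0.77, and their 2 month differences between −0.20 and −0.05. Those nearest to Mkx were Prkg1 (0.102), Plod2, Sobp, Efemp1 and Ppil6 (0.127), with 6 month differences of −1.51 to −1.28. Those nearest to Tnmd were farther off: Lum (0.213), Mmp2, Dlk1, Mmp3 and Col14a1 (0.264). Col14a1 (0.117) was also the nearest to Thbs4, before Fstl1, Antxr1, Nid1 and Col6a5 (0.146). Nearest to Scx were Cuedc1 (0.108), Zfp799, Smpd2, Nupr1 and Pdrg1 (0.129).

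Mkx and Scx were set among other transcription factors of tendon, ligament and the sclerotome, from which the annulus derives. This list and the later ones were chosen with earlier results of these data known, and some share genes. Their shares beside those of all genes are therefore descriptive. Of 18 tested at 6 months, Mkx and Scx included, 9 fell, 1 rose and 8 did not pass (median −0.43, against −0.03 over all genes, of which 17.6% fell and 21.2% rose). With arrays centred on the fibrous matrix list 5 fell and 8 of the 18 lay above 0. Pax1, a sclerotome factor, fell by 1.04 ± 0.11 and its relative Pax9 by 0.96 ± 0.10 (limma adjusted p = 0.000574 and 0.000542). Meox2, a somite homeobox factor chosen after its values were seen, fell by 1.31 ± 0.18 (limma adjusted p = 0.00119). The gene that rose was Tcf3, an E protein that partners basic helix-loop-helix factors such as Scx, by 0.92 ± 0.11 (limma adjusted p = 0.000819). The calls of Mkx, Meox2, Pax1, Pax9, Tcf3 and Foxf2, a forkhead factor named after its values were seen, held under each of 17 alternatives, and those of the other 4 falls did not. At 2 months 0 of 18 were called, against 0.683% of all genes (median −0.07). The change between ages was called in 4, all lower: Mkx, Meox2, Pax1 and Pax9. For each of these 4 it ended whichever array was left out, as most calls of all genes in that comparison did.

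Genes of the fibrous matrix of tendon and annulus fell more often than they rose at 6 months. Whether they depend on Mkx or Scx in this tissue was not tested. Of 31 tested, 20 fell, 4 rose and 7 did not pass (median −0.50), where 17.6% of all genes fell and 21.2% rose. Ecm2, an extracellular matrix glycoprotein, fell by 1.60 ± 0.11 (limma adjusted p = 0.000383) and Abi3bp, a collagen-binding matrix protein, by 1.15 ± 0.11 (limma adjusted p = 0.000435). Fmod, fibromodulin, which binds collagen fibrils, fell by 0.87 ± 0.08 and Tnxb, tenascin X, by 0.98 ± 0.11 (limma adjusted p = 0.00045 and 0.000585). These 4 calls held under all 17 alternatives, as did those of Comp and of Col6a3, Aspn, Cilp and Cilp2, the last 4 named after their values were seen, while 11 of the 20 falls did not. The 4 that rose, named after their values were seen, were Col1a1 (1.35) and Col1a2 (1.19), which encode type I collagen, Tnc, tenascin C (1.14), and Lum, lumican (0.59). Of these Col1a2 passed under every alternative. Counts of falls dropped from 20 to 12 without 6 month WT replicate 1, to 13 without 6 month WT replicate 2 or ENT1-null replicate 2, to 13 with all probe sets, and to 10 when the arrays were centred on this list itself. At 2 months, where 0.683% of all genes were called, 1 of 31 fell, Cilp2 (−0.80 ± 0.11, limma adjusted p = 0.0443), and 30 did not pass (median −0.11). That call held under 7 of 17 alternatives and ended without any 1 of the 2 month arrays or of the 6 month ENT1-null arrays, with the replicate block, with no filter, with all probe sets and with only the groups compared.

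The thrombospondins are secreted calcium-binding proteins of the matrix. Of 5 tested at 6 months 4 fell and Thbs4 did not pass (median −0.92), where 17.6% of all genes fell. Thbs3 fell by 0.96 ± 0.09, Thbs1 by 0.94 ± 0.12, Thbs2 by 0.92 ± 0.14 and Comp, cartilage oligomeric matrix protein, by 0.82 ± 0.13 (limma adjusted p between 0.000453 and 0.00201). These 4 calls held under all 17 alternatives. Thbs4 was also the only one of the 5 above 0 at 2 months, where none was called and the list median was −0.29. The difference between Thbs4 and the other 4 was not tested.

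Tnmd and Cnmd were set among the other proteins with a BRICHOS domain, a fold that guards parts of proproteins during their maturation. Of 8 tested at 6 months 3 fell, 0 rose and 5 did not pass (median −0.17). The share called is near that of all genes (38.8%, of which 17.6% fell). Besides Cnmd these were Itm2c, an integral membrane protein, with −0.38 ± 0.09 (limma adjusted p = 0.0133), and Gkn1, a gastrokine, with −0.27 ± 0.09 (limma adjusted p = 0.042). The Gkn1 call held under 1 of 16 alternatives, and that of Itm2c ended without 6 month WT replicate 1 or ENT1-null replicate 2 and with arrays centred on the fibrous matrix list. Without 6 month WT replicate 1 Cnmd was the 1 gene that fell. Itm2b gave 0.18 ± 0.08 (limma adjusted p = 0.111). Tnmd had the highest value of the 8 at both ages, and Cnmd the lowest at 6 months. Arrays centred on the fibrous matrix list turned the list's median to 0.14, with 2 genes higher and 1 lower.

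**Figure D4:**
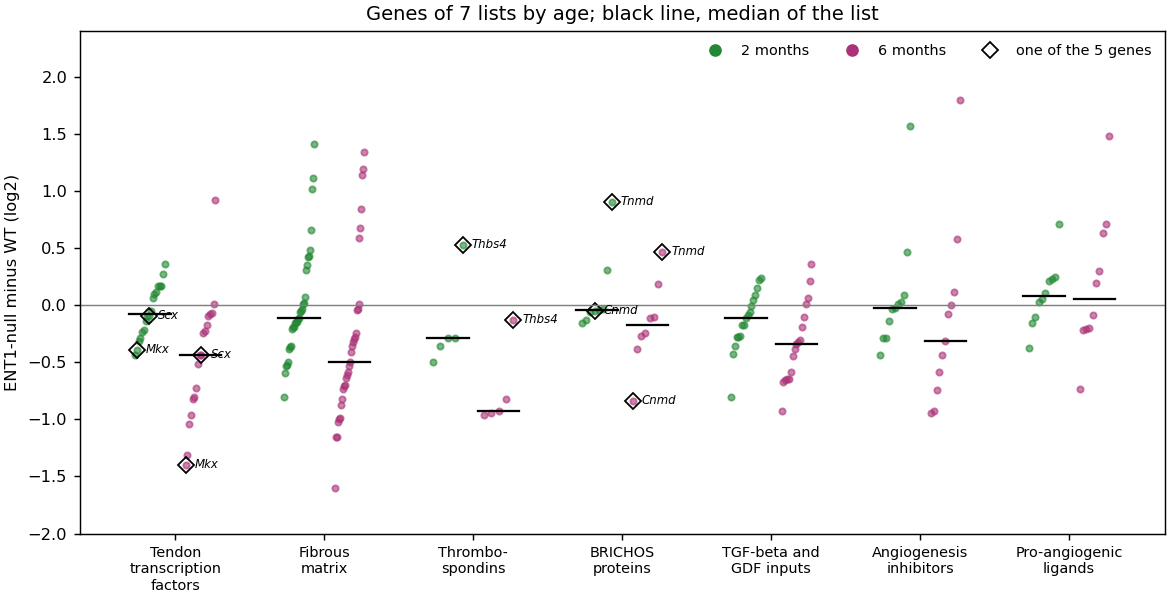
ENT1-null minus WT (log2, y axis) of each tested gene in 7 lists at 2 months (green) and 6 months (purple); black lines are list medians and diamonds mark the 5 genes. At 6 months the medians of the transcription factors (−0.43), the fibrous matrix (−0.50) and the thrombospondins (−0.92) lie below the median of all genes (−0.03).

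The TGF-beta and GDF pathways are known to switch on Scx and tendon genes. Of 17 of their genes tested at 6 months 9 fell, 1 rose and 7 did not pass (median −0.34), against falls in 17.6% and rises in 21.2% of all genes. Tgfbr3, the co-receptor betaglycan, fell by 0.92 ± 0.12 (limma adjusted p = 0.0011), the ligand Tgfb3 by 0.65 ± 0.10, the latent-ligand binder Ltbp3 by 0.66 ± 0.11 and the signal carrier Smad3 by 0.59 ± 0.09 (limma adjusted p between 0.00175 and 0.00306). The gene that rose was Tgfb1 (0.36 ± 0.09, limma adjusted p = 0.0192), named after its values were seen. Of the 10 calls that of Tgfbr3 held under every alternative. With arrays centred on the fibrous matrix list 1 gene was lower and 2 were higher, and leaving out the first 6 month ENT1-null array gave 4 falls, the second 5, and the second 6 month WT array 5. At 2 months 0 of 17 were called, against 0.683% of all genes (median −0.11).

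The restraint of blood vessels, for which Tnmd and Cnmd are known, has other inhibitors and is set against growth factors. Of 11 other inhibitors tested at 6 months 6 fell, 1 rose and 4 did not pass (median −0.32), where 17.6% of all genes fell. They were Thbs1 and Thbs2, given above, Timp2, a metalloproteinase inhibitor (−0.59 ± 0.08, limma adjusted p = 0.00155), Sema3a, a semaphorin (−0.74 ± 0.14, limma adjusted p = 0.00456), and Timp3 and Adamts1. The gene that rose, Pf4, a platelet chemokine (1.79 ± 0.38, limma adjusted p = 0.00844), Timp3 and Adamts1 were named after their values were seen. The calls of Thbs1, Thbs2 and Sema3a held under every alternative, and that of Pf4 ended without 6 month WT replicate 2. With arrays centred on the fibrous matrix list 3 inhibitors were lower and 3 higher. At 2 months 0 of 11 were called, against 0.683% of all genes (median −0.02).

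Of 10 ligands that promote vessel growth 2 rose, 1 fell and 7 did not pass at 6 months (median 0.05). These shares are near or under those of all genes, 21.2% of which rose and 17.6% fell. Hgf, hepatocyte growth factor, rose by 1.48 ± 0.11 (limma adjusted p = 0.000383) and Pgf, placental growth factor, by 0.71 ± 0.13 (limma adjusted p = 0.00419). Vegfa, the main vascular endothelial growth factor, fell by 0.74 ± 0.14 (limma adjusted p = 0.00579). These 3 calls held under every alternative in which the gene was tested, and Pdgfb gave 0.63 ± 0.23 (limma adjusted p = 0.0653). Arrays centred on the fibrous matrix list gave 5 ligands higher and 1 lower. At 2 months, where 0.683% of all genes were called, Hgf was the 1 gene called of 10 (0.71 ± 0.11, limma adjusted p = 0.0443, median of the list 0.08). That call held under 7 of 16 alternatives. It ended without any 1 ENT1-null array of either age and without 2 month WT replicate 1. It also ended with no filter, with the replicate block, with all probe sets and with only the groups compared. Endothelial markers (12 genes) had mean levels of 7.76 to 8.17 in WT and 8.12 to 8.46 in ENT1-null at 2 months, and of 8.01 to 8.07 and 8.34 to 8.42 at 6 months, where 3 rose, 1 fell and 8 did not pass.

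Markers of several, not all, other cell types differed between genotypes at 6 months, the age at which Mkx and Cnmd were low in ENT1-null. Neutrophil, erythroid, macrophage and mitosis lists already lay above WT on the ENT1-null arrays at 2 months. At that age Mkx differed by −0.39, Scx by −0.10, Tnmd by 0.91, Cnmd by −0.05 and Thbs4 by 0.52, none of them called. The mean level of 17 chondrocyte markers, Cnmd among them, was 10.8 on both WT arrays and 10.5 to 10.7 in ENT1-null at 2 months, and 10.4 in WT and 9.74 to 9.77 in ENT1-null at 6 months, where 11 of 17 fell. The 9 markers of tendon and ligament fibroblasts, 4 of them genes of the set, lay at 8.80 to 9.19 and 9.11 to 9.16 at 2 months, and at 8.68 to 8.99 and 8.39 to 8.45 at 6 months. At 6 months 4 of the 9 fell, Mkx among them, 0 rose and 5 did not pass, with differences from −1.40 to 0.68. Neutrophil markers lay at 8.65 to 9.81 in WT and 10.6 to 10.9 in ENT1-null at 2 months, and at 8.39 to 9.90 and 11.6 to 11.7 at 6 months, where 15 of 15 rose. Erythroid markers lay at 7.50 to 8.05 and 9.25 to 9.41 at 2 months, and at 7.93 to 8.81 and 10.4 to 10.7 at 6 months, where 6 of 6 rose. Skeletal muscle markers lay at 8.11 to 9.30 and 8.86 to 10.3 at 2 months, and at 10.1 to 10.2 and 7.52 to 8.55 at 6 months, where 13 of 16 fell. The lower 2 month WT array (8.11) lay between the 6 month ENT1-null arrays. Of the lists not yet given, genes of mitosis and G2/M rose in 19 of 19 cases at 6 months (median 2.23), osteoclast markers in 7 of 7, macrophage markers in 8 of 9 and B cell markers in 6 of 8. At 2 months the mitosis list lay at 7.16 to 7.57 in WT and 8.54 to 8.62 in ENT1-null. The macrophage list lay at 7.10 to 7.64 and 7.97 to 8.06. Osteoblast and osteocyte markers rose in 2 and fell in 2 of 8, adipocyte markers rose in 1 of 6, and none of 6 notochord and nucleus pulposus markers passed (median −0.26). At 6 months 21.2% of all genes rose and 17.6% fell, so that the osteoblast and adipocyte rises lie near the share of all genes. Only 6 of 12 listed erythroid and 6 of 9 listed notochord genes were tested. The part of these markers in the results for the 5 genes was not tested.

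**Figure D5:**
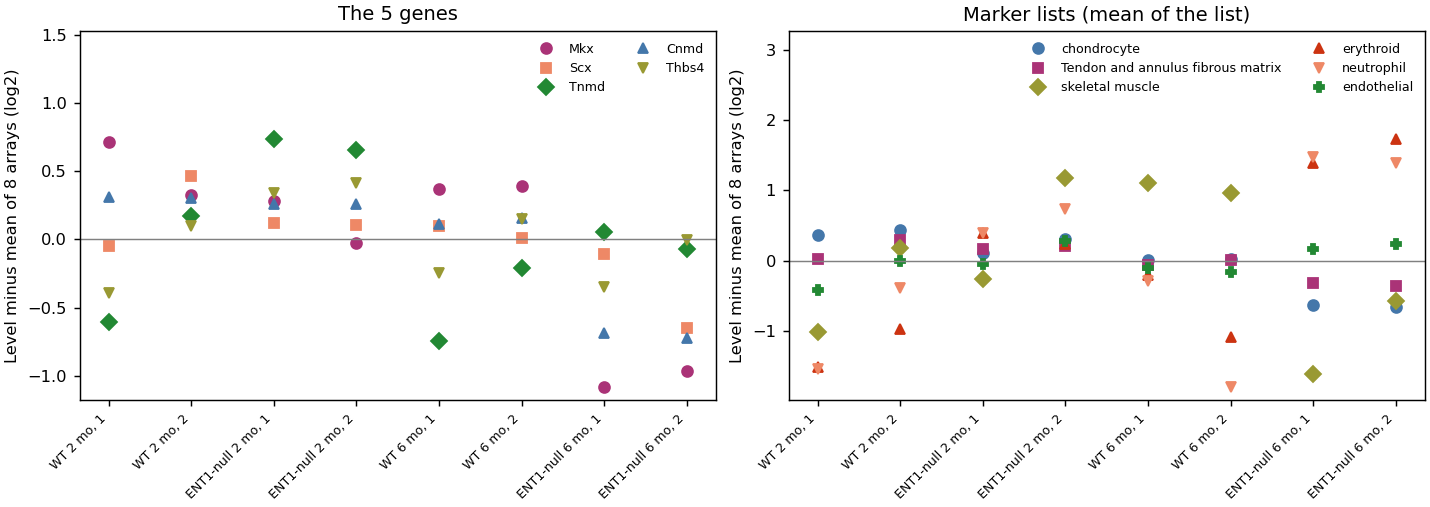
Level on each array minus the gene's or list's mean over the 8 arrays (log2, y axis; x axis, the 8 arrays) for the 5 genes (left) and the mean of 6 lists of genes (right). The neutrophil and erythroid lists are highest on the 6 month ENT1-null arrays. Mkx, Scx, Cnmd and the chondrocyte and fibrous matrix lists are lowest there.

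How the arrays are scaled bears on these directions. Main values gave 3295 higher and 2727 lower genes at 6 months, quantile normalization applied again 2923 and 3059, and arrays centred on their medians 3606 and 2293. Arrays centred on the mean of the 31 fibrous matrix genes gave 6180 and 757 and moved the median of all genes from −0.03 to 0.29. Measured against the fibrous matrix in this way, Mkx (−1.08) and Cnmd (−0.52) were still lower at 6 months. Tnmd was called higher at 2 months (0.88, limma adjusted p = 0.00391) and at 6 months (0.79, limma adjusted p = 0.00135), against 0.91 and 0.47, neither called, in the main fit. The list itself was lower in ENT1-null at 6 months (10.34 to 10.39, against 10.65 to 10.71 in WT), so this centring raises every gene's difference at that age. It also holds Lum and Col14a1, which are near to Tnmd in profile. These Tnmd calls are therefore not separate support for a rise. The fall of Mkx and Cnmd at 6 months was called in each of 17 alternatives, at −1.47 to −1.08 and −0.93 to −0.52.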

How the data were processed

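Expression was measured on 8 Affymetrix arrays. The authors' deposited values, 1 for each probe set on each array, are log2 expression made with RMA (background correction, quantile normalization and summary of probes) per the submitters' processing notes. For its version and the array's build, the sources used here give nothing. Quantile normalization makes the arrays' distributions alike, so values are relative to the array. Of 41345 probe sets 23521 had 1 gene symbol, 1814 several and 16010 none. The probe set with the highest mean stood for a gene (22180 genes, of which 1082 had several to choose from). Genes whose mean lay under the 30th percentile (6.206) were left out.

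The labels gave the groups, and all arrays were kept. limma 3.58.1 in R 4.3.3 fitted 4 group means to all 8 arrays (4 residual degrees of freedom), or genotype and age as terms for values across ages (5 residual degrees of freedom). Moderated statistics from eBayes were adjusted by the Benjamini-Hochberg method over the 15526 genes tested. The fit was tested on simulated data. Figures were drawn with matplotlib 3.10.9 in Python 3.11.15.

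The 5 genes and the lists (7 of pathways, 13 of markers) were chosen with earlier results of these data known. Genes named were the 5, Slc29a1, the 5 nearest to each of them (without predicted genes, small nucleolar RNAs, microRNAs, vomeronasal or olfactory receptors), and the 4 of each pathway list with the largest moderated statistic at 6 months. Other genes were named after their values were seen, as stated beside them. Of the listed genes, Twist2, Fbn1, Sftpc, Gkn3, Adamts8 and Vash1 were among those not tested. Alternatives were other filters, scalings, eBayes settings, probe sets and samples, leaving out each array, and the replicate number as a block.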

Additional observations from a re-analysis of the deposited data

Results flagged for a closer look

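The effect of ENT1 loss differed between the ages, by the test of the difference itself, for 2 of the 5 genes, where 4.45% of all genes were called and 1.89% were lower. For Mkx the ENT1-null minus WT difference at 6 months was lower than that at 2 months by a log2 value of −1.01 (2 arrays per group, limma adjusted p = 0.0474), a call that ended whichever array was left out and with the replicate block. For Cnmd it was lower by a log2 value of −0.78 (limma adjusted p = 0.0383), a call that ended in 7 of 8 cases with an array left out. Most calls of all genes in this comparison also ended with an array left out. In both genes the 6 month ENT1-null arrays were the lowest of the 8.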

How the results depend on the processing

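Of 500 alternative values of the 5 genes 442 kept their direction and their side of the threshold, 32 no longer passed, 11 newly passed and 15 changed sign. Several settings alter only the p-value, and some leave out an array that the comparison does not use. In those cases the direction could not change. Leaving out single arrays gave these ranges. At 2 months Tnmd was 0.52 to 1.30 and Scx −0.35 to 0.16. At 6 months Scx was −0.70 to −0.16 and Thbs4 −0.33 to 0.070. The change between ages was −1.20 to −0.82 for Mkx and −0.81 to −0.76 for Cnmd. Age in WT gave −0.34 to 0.053 for Mkx, −0.41 to 0.10 for Scx, −0.65 to 0.13 for Tnmd and −0.14 to 0.35 for Thbs4, and age in ENT1-null −0.76 to −0.64 for Tnmd. Across ages Mkx was −1.07 to −0.77, Tnmd 0.49 to 0.84 and Cnmd −0.52 to −0.36. The number of the 5 genes called was 0 to 1 at 2 months, 2 to 3 at 6 months, 0 to 1 for the change between ages, 2 to 3 for age in ENT1-null and 0 to 3 across ages.

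Arrays centred on the fibrous matrix list gave Tnmd 0.88 and 0.79 at 2 and 6 months, both now called, so that 1 gene was called at 2 months and 3 at 6 months. That centring gave the change between ages as −0.67 for Mkx and −0.44 for Cnmd, neither called, and turned the sign of Thbs4 at 6 months (0.19), of Scx in the change between ages (0.0064) and in ENT1-null with age (0.036), and of Mkx (0.041), Scx (0.030) and Cnmd (0.0081) in WT with age. It moved the median of all genes at 6 months to 0.29. The change between ages was not called with no filter or all probe sets, both of which test more genes, for Mkx (−1.01) and Cnmd (−0.78), so that 0 of 5 were called. With only the groups compared 4 of 5 were called for age in ENT1-null, Tnmd (−0.70) and Thbs4 (−0.55) among them. With all probe sets 1 of 5 was called across ages, Tnmd (0.69) not passing. Where no construction is named, the cause was not tested.

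No label says whether replicate numbers tie arrays of different groups, and the arrays were treated as unpaired. Deviations from the group means correlated between −0.395 and 0.415, which does not decide it. With the replicate block, Mkx in the change between ages (−1.01, adjusted p 0.0562) was not called, which left 1 of 5, and Thbs4 in ENT1-null with age (−0.55, adjusted p 0.0222) was. The number of all genes called was 106 at 2 months, where alternatives gave 0 to 818 (1 with the replicate block), and 691 in the change between ages, where they gave 0 to 4201 (353 with the replicate block). At 6 months it was 6022, and 3670 without WT replicate 2. Age in WT gave 0, and 303 with the fibrous centring. Age in ENT1-null gave 3442, with a range of 1519 without 2 month replicate 1 to 11781 with that centring, and genotype across ages gave 3809, and at the lowest 1390 without 6 month WT replicate 1. With 2 arrays per group the intervals of single genes are wide, and signal over background could not be read from these summarized values.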
